A study of Homo sapiens with 12 samples.

Results

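The 10 genes described here encode the G1 cyclins CCND1, CCND2, CCND3 and CCNE1, the cyclin D partner kinase CDK6, and the CDK inhibitors CDKN1A, CDKN1B, CDKN1C, CDKN2C and CDKN2D. They were chosen by name as a functional group, with earlier results of these data known, from the 60671 genes of the count table, and all 10 were among the 18626 genes with enough counts to be tested. RNA-seq counts from 12 samples were compared, with 4 replicates of each of 3 lines. K562 is a human leukemia line with erythroid and megakaryocytic features, here the parent of both other lines. K/VP.5 is a K562 clone obtained by exposure to etoposide, a TOP2A poison, and is resistant to that drug. K562/SSedit-2 is a K562 clone in which CRISPR/Cas9 with homology-directed repair silenced the 5′ splice site between exon 19 and intron 19 in some but not all copies of TOP2A; it is also called the edited clone here. No drug treatment of the sequenced cells is stated, and each derived line is 1 clone, so the line, its clone and its selection or editing cannot be told apart. The labels do not say that replicates were separate cultures, so p-values measure only the spread between these samples, which may be technical.

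A cell that leaves G1 first raises D-type cyclins, which bind CDK4 or CDK6, and then cyclin E, which binds CDK2. Both kinase complexes phosphorylate the retinoblastoma protein and its relatives, which frees E2F factors to activate genes of DNA synthesis. INK4 inhibitors such as CDKN2C (p18) and CDKN2D (p19) bind CDK4 and CDK6 alone, while the Cip/Kip inhibitors CDKN1A (p21), CDKN1B (p27) and CDKN1C (p57) bind cyclin-kinase complexes more broadly. K562 is known to lack functional p53, an activator of CDKN1A, and to have lost the locus that holds the INK4 genes CDKN2A and CDKN2B.

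Total counts ranged from 36883518 to 43648830 in the parental line, from 28981722 to 39944440 in K/VP.5 and from 32355417 to 37619488 in the edited clone. Levels are given as CPM, counts scaled to library depth, with TMM factors. TOP2A, the edited gene, was measured at 352 to 488 CPM in the parental line, 268 to 282 CPM in K/VP.5 and 177 to 208 CPM in the edited clone, without overlap between lines. All 10 erythroid and megakaryocytic markers were expressed at a testable level. Their summed level was 3684 to 4764 CPM in the parental line, 3176 to 3438 CPM in K/VP.5 and 4999 to 5507 CPM in the edited clone. Of 12 markers of other cell types, 6 were not testable (CD3E, CD79A, CD14, MPO, ALB and NCAM1), with at most 17 counts in any sample. The other 6 summed to 488 to 762 CPM in the parental line, 776 to 934 CPM in K/VP.5 and 569 to 779 CPM in the edited clone, mostly from KRT8, an epithelial keratin. In K/VP.5 against K562, 3 of them rose and 2 fell, beside 26.2% and 26.1% of all genes. KRT8 rose from 395 to 647 CPM (adjusted p = 0.00104), and the collagen genes COL1A1 and COL1A2 rose from 2.59 to 22.5 CPM and from 4.64 to 30.8 CPM (adjusted p = 1.13e-07 and 2.13e-08). PECAM1, an endothelial and megakaryocytic adhesion gene, fell from 24.8 to 0.286 CPM (82.9-fold lower, adjusted p = 9.73e-12), and EPCAM fell from 176 to 129 CPM (adjusted p = 9.85e-05). In K562/SSedit-2 against K562, 1 rose and 1 fell, beside 4.86% and 7.79% of all genes. The part of these genes in the results below was not tested.

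K562 replicate 1 stood apart from its replicates. Its 3 pairs with them had a chi-square per degree of freedom of 53.5 to 56.4 over genes, against 4.82 to 19.5 in the 15 other pairs of replicates within a line. Its TOP2A level was 488 CPM, against 352 to 388 CPM in the other K562 samples. Without this library, 7 of the 10 genes passed an adjusted p of 0.1 in K/VP.5 against K562 and 2 in K562/SSedit-2 against K562, beside 8 and 2 with it, and the call lost was that of CDKN1C. The share of all genes past that threshold was 52.4% without it and 52.3% with it for K/VP.5 against K562, and 19.5% without it and 12.6% with it for K562/SSedit-2 against K562. In the latter comparison, 9.56% of all genes were higher and 9.94% lower without this library, against 4.86% and 7.79% with it.

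In K/VP.5 compared with K562, 8 of the 10 genes passed an adjusted p of 0.1, and 52.3% of all tested genes did so. The test was edgeR's quasi-likelihood F test with Benjamini-Hochberg adjustment over all tested genes. CDKN1B, CDKN2C, CCND2 and CDK6 rose, and CDKN1C, CCND1, CCND3 and CCNE1 fell, against 26.2% of all genes upward and 26.1% downward. With a 2-fold change also required, 3 genes passed (CCND2 and CDK6 up, CCND1 down), against 15.6% of all genes (8.98% up, 6.66% down). The replicates of both lines did not overlap for 7 of the 10, against 43.0% of all genes. The median log2 fold change of the 10 was 0.27, against 0.01 over all tested genes. In bulk RNA a smaller share of expressing cells and less RNA per cell cannot be told apart.

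In K562/SSedit-2 compared with the same K562 samples, 2 of the 10 genes passed, CCND1 and CCND2, both upward, and 12.6% of all tested genes passed (4.86% upward, 7.79% downward; without K562 replicate 1, 9.56% and 9.94%). For both genes the replicates did not overlap, which held for 13.2% of all genes. The median log2 fold change of the 10 was -0.02, against -0.01 over all tested genes. The count past both thresholds was 0 by edgeR, by limma voom and by DESeq2, while 2.06% of all genes passed both thresholds (0.805% up, 1.26% down). The largest log2 fold change of the 10 was that of CCND1, at 0.78 and at most 0.87 under any alternative. The 2-fold threshold alone thus set this count to 0 at any p threshold, an unadjusted edgeR p under 0.05 included. The first 2 comparisons share their K562 samples, so the derived lines were also compared directly. In K562/SSedit-2 compared with K/VP.5, 7 of the 10 passed (54.0% of all genes, 26.2% upward and 27.8% downward). CCND1 and CCND3 were higher in K562/SSedit-2, and CDKN1B, CDKN2C, CDKN2D, CCND2 and CDK6 were lower. CCND1, CCND2 and CDK6 also differed by 2-fold or more (15.8% of all genes, 6.20% up and 9.62% down), and 7 of the 10 had replicates that did not overlap (47.4% of all genes).

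**Figure D1:**
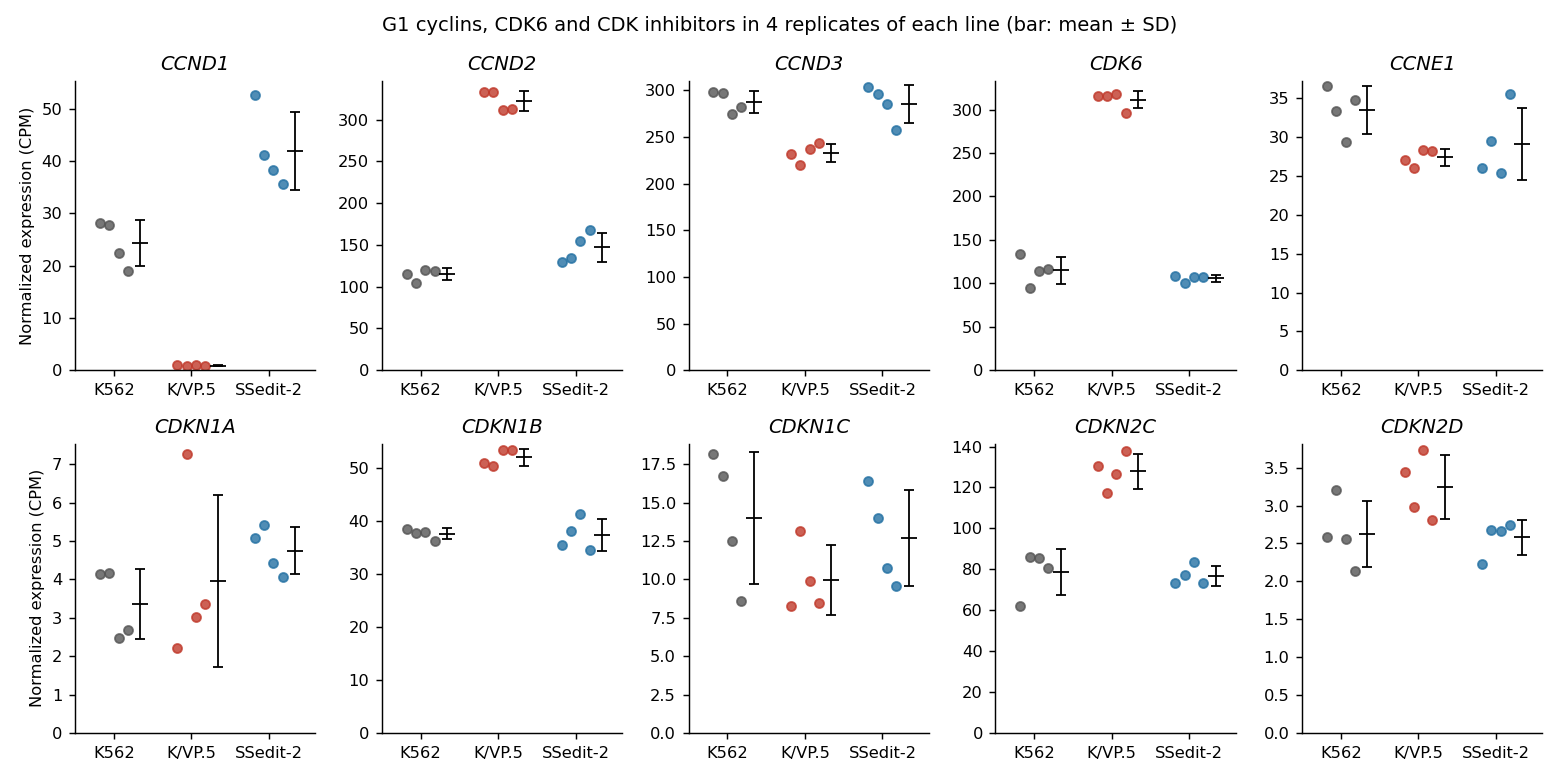
Normalized expression in CPM on linear axes starting at 0, one panel per gene, with each point a replicate of the line named below it (SSedit-2 is K562/SSedit-2) and the bar beside it the mean ± SD (n = 4). CCND1 was at 0.779 to 1.00 CPM in K/VP.5 against 19.1 to 28.2 CPM in K562, while CCND2 and CDK6 were highest in K/VP.5.

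**Figure D2:**
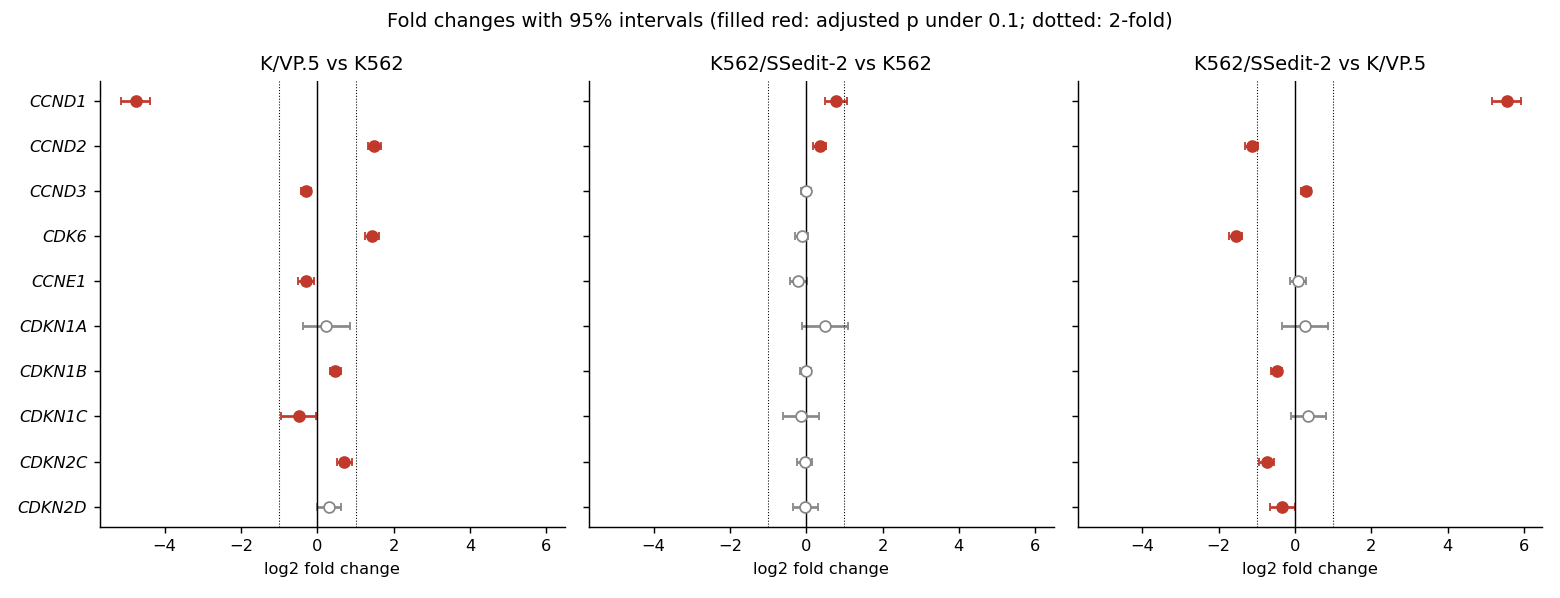
Log2 fold changes of the 10 genes in the 3 comparisons, with 95% confidence intervals. Filled points have an adjusted p under 0.1, and the dotted lines mark a 2-fold change. CCND1 lies at -4.76 in K/VP.5 and at 0.78 in K562/SSedit-2, each against K562.

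CCND1 (ENSG00000110092, chr11:69641156-69654474, plus strand, GRCh38) encodes cyclin D1, which is induced by mitogens in many tissues and is usually a minor D-type cyclin in blood cells. In the order of replicates 1 to 4, it was measured at 28.2, 27.8, 22.4 and 19.1 CPM in K562. In K/VP.5 it was at 1.00, 0.851, 0.927 and 0.779 CPM, from 40, 32, 32 and 23 counts. Replicates of the edited clone were at 52.7, 41.1, 38.3 and 35.6 CPM. The lowest K562/SSedit-2 sample was above the highest K562 sample, and every K/VP.5 sample was far below both. The log2 fold change from K562 was -4.76 ± 0.18 in K/VP.5 (SE, adjusted p = 2.63e-12), a level 27.1-fold lower. In K562/SSedit-2 it was 0.78 ± 0.13 (adjusted p = 0.00127), a level 1.72-fold higher. The departures of the clones from K562 were thus in opposite directions, each past the threshold. K562/SSedit-2 and K/VP.5 differed by 5.55 ± 0.18 (adjusted p = 4.07e-13). CCND1 shares 497 exon bases with LTO1, which lies on the opposite strand. LTO1 had 808 to 1432 counts per sample and a log2 fold change of -0.21 in K/VP.5 (adjusted p = 0.13). How reads in shared exon bases were assigned is not given in the sources used here.

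CCND2 (ENSG00000118971, chr12:4269771-4305353, plus strand) encodes cyclin D2, a D-type cyclin prominent in blood cells. It was at 115, 105, 120 and 119 CPM in K562 and at 333, 333, 312 and 313 CPM in K/VP.5. The edited clone gave 130, 135, 155 and 168 CPM. The lines did not overlap, and the order was K562, K562/SSedit-2, K/VP.5, with each step past the test. It rose by 1.49 ± 0.081 on the log2 scale in K/VP.5 (2.81-fold, adjusted p = 2.47e-10) and by 0.36 ± 0.080 in K562/SSedit-2 (1.28-fold, adjusted p = 0.0110). K562/SSedit-2 was below K/VP.5 by a log2 difference of -1.13 (adjusted p = 6.59e-09).

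CCND3 (ENSG00000112576, chr6:41934934-42050357, minus strand) encodes cyclin D3, which is used by many blood lineages, erythroid cells among them. It was at 298, 297, 274 and 282 CPM in K562 and at 232, 220, 237 and 243 CPM in K/VP.5. The edited clone had 304, 296, 285 and 257 CPM. The K/VP.5 samples lay below all others, while K562/SSedit-2 spanned the K562 range. CCND3 fell by 0.30 on the log2 scale in K/VP.5 (SE 0.064, adjusted p = 8.70e-04). In K562/SSedit-2 the log2 difference from K562 was -0.01 (95% confidence interval -0.15 to 0.12), and the difference between the clones was 0.29 ± 0.064 (adjusted p = 0.00112).

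Levels of different genes were compared per kb of merged exon length. The 3 D-type cyclins summed to 69.4 ± 2.23 CPM per kb in the parental line, 81.0 ± 1.03 in K/VP.5 and 76.8 ± 2.79 in the edited clone (SD, n = 4). Per kb of the longest coding transcript the sums were 143 ± 4.99, 145 ± 2.89 and 151 ± 7.45 in the same order, and their ranges overlapped, so the difference between lines in this sum turned on the length used. By merged exon length, CCND3 made up 71.9% ± 1.00 of this sum in K562, CCND2 20.7% ± 1.74 and CCND1 7.34% ± 1.14. In K/VP.5 the shares were 49.9% ± 1.90 for CCND3, 49.9% ± 1.89 for CCND2 and 0.230% ± 0.024 for CCND1. In K562/SSedit-2 they were 64.5% ± 2.54, 24.1% ± 3.74 and 11.4% ± 1.65. CCND2 thus reached the level of CCND3 in K/VP.5 by this length, but with the longest coding transcript as the length CCND3 kept 67.3% there and CCND2 32.6%.

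**Figure D3:**
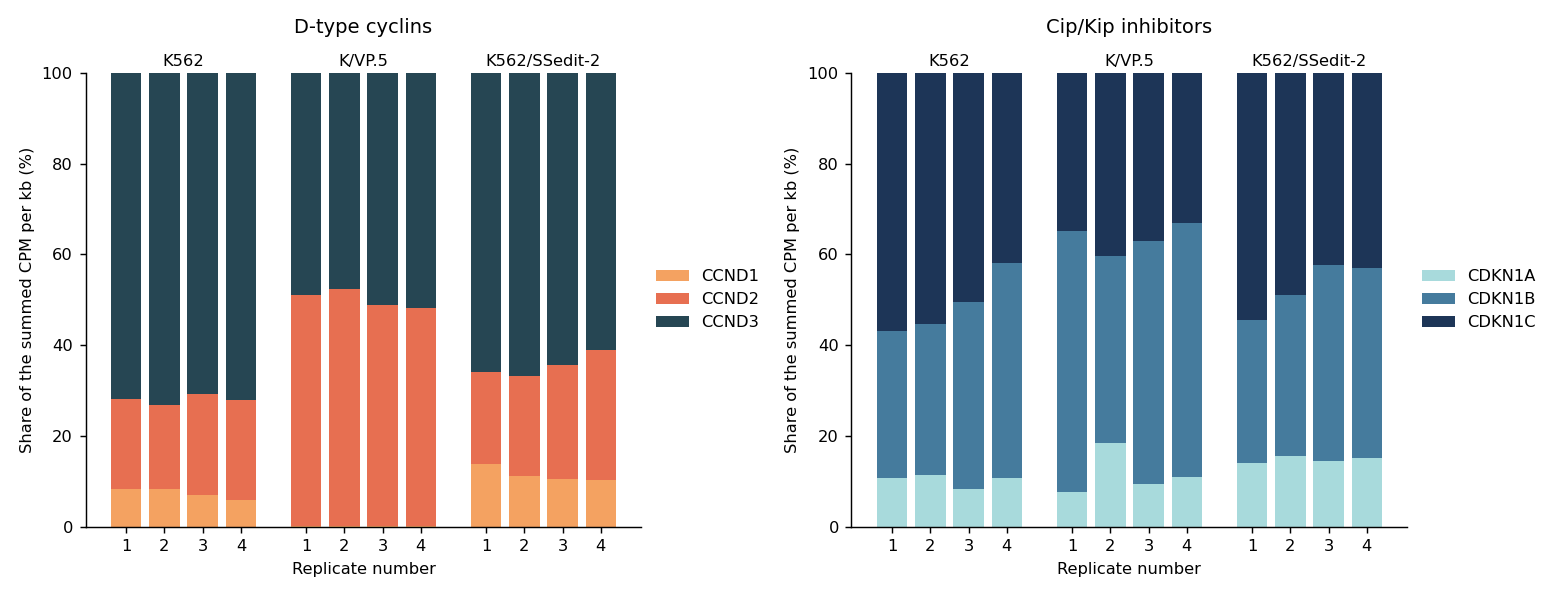
Shares in percent of the summed CPM per kb of merged exon length for the D-type cyclins (left) and the Cip/Kip inhibitors (right), one bar per sample by line and replicate number. The CCND2 share was 18.6% to 22.3% in the parental line and 48.0% to 52.1% in K/VP.5, and CCND1 at 0.230% is too small to see in K/VP.5.

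CDK6 (ENSG00000105810, chr7:92604921-92836573, minus strand) encodes the kinase that D-type cyclins activate in many blood cells. It was at 134, 95.2, 114 and 117 CPM in K562 and at 316, 315, 318 and 296 CPM in K/VP.5. Its level in the edited clone was 109, 99.98, 107 and 107 CPM. The K/VP.5 samples were all at 296 CPM or above and clear of both other lines, whereas K562/SSedit-2 lay within the K562 range. The log2 fold change was 1.44 ± 0.084 in K/VP.5 (2.71-fold, adjusted p = 5.79e-10). In K562/SSedit-2 it was -0.12 ± 0.082 (adjusted p = 0.43, 95% confidence interval -0.30 to 0.05). The clones differed by -1.56 ± 0.084 (adjusted p = 2.05e-10). CDK6-AS1, a long noncoding RNA gene on the opposite strand that shares 86 exon bases with CDK6, had 7 to 12 counts in the parental line, 58 to 78 counts in K/VP.5 and 5 to 15 counts in the edited clone. Its log2 fold change in K/VP.5 was 2.85 (adjusted p = 1.44e-07). CDK6 itself had at least 3422 counts in every sample.

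CCNE1 (ENSG00000105173, chr19:29811991-29824312, plus strand) encodes cyclin E1, which activates CDK2 late in G1. It was at 36.6, 33.4, 29.3 and 34.7 CPM in K562 and at 27.0, 26.0, 28.4 and 28.2 CPM in K/VP.5. Levels in K562/SSedit-2 were 26.0, 29.4, 25.4 and 35.5 CPM. K/VP.5 lay just below the lowest K562 sample, and K562/SSedit-2 spread over both ranges. CCNE1 fell by 0.29 on the log2 scale in K/VP.5 (SE 0.10, adjusted p = 0.026). In K562/SSedit-2 the difference was -0.20 ± 0.10 (adjusted p = 0.24), which became -0.30 (adjusted p = 0.056) without K562/SSedit-2 replicate 4. The clones did not differ past the threshold (0.09, 95% confidence interval -0.13 to 0.30).

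Among the Cip/Kip inhibitors, CDKN1B (ENSG00000111276, chr12:12685498-12722369, plus strand) encodes p27, which holds cyclin E-CDK2 inactive in resting cells. It was at 38.5, 37.6, 37.9 and 36.1 CPM in K562 and at 50.9, 50.3, 53.3 and 53.3 CPM in K/VP.5. The K562/SSedit-2 samples were at 35.5, 38.0, 41.2 and 34.5 CPM. The K/VP.5 samples were above all others, and the other lines overlapped. It rose by 0.47 ± 0.067 on the log2 scale in K/VP.5 (1.38-fold, adjusted p = 2.45e-05). The difference in K562/SSedit-2 was -0.01 (95% confidence interval -0.15 to 0.13), and the clones differed by -0.48 ± 0.067 (adjusted p = 1.96e-05).

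CDKN1C (ENSG00000129757, chr11:2883213-2885775, minus strand) encodes p57 and is an imprinted gene. It was at 18.1, 16.7, 12.5 and 8.60 CPM in K562 and at 8.25, 13.2, 9.88 and 8.44 CPM in K/VP.5. The edited clone was measured at 16.4, 14.0, 10.8 and 9.55 CPM. The 3 lines overlapped, and the coefficient of variation was 30.9% in K562, the widest of the 10 genes in that line. CDKN1C fell by 0.49 on the log2 scale in K/VP.5 (SE 0.22, adjusted p = 0.081). That call was lost with upper-quartile scaling (adjusted p = 0.12), with limma voom (adjusted p = 0.12) and when K562 replicate 1 or 2 or K/VP.5 replicate 1, 3 or 4 was left out (adjusted p = 0.12 to 0.18). The log2 difference was -0.14 ± 0.22 in K562/SSedit-2 (adjusted p = 0.77) and 0.35 ± 0.22 between the clones (adjusted p = 0.21). Between the clones, leaving out K/VP.5 replicate 2 gave 0.54 (adjusted p = 0.066) and leaving out K562/SSedit-2 replicate 4 gave 0.47 (adjusted p = 0.096). That difference also passed with replicate number as a block (0.34, adjusted p = 0.067), in the compared lines alone and without a filter (adjusted p = 0.017).

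CDKN1A (ENSG00000124762, chr6:36676460-36687337, plus strand) encodes p21, a p53 target. It was at 4.15, 4.17, 2.48 and 2.67 CPM in K562 and at 5.08, 5.41, 4.44 and 4.06 CPM in K562/SSedit-2. In K/VP.5 it was at 2.22, 7.26, 3.01 and 3.35 CPM, and replicate 2 stood above every other sample. No comparison passed. The log2 fold change was 0.24 ± 0.29 in K/VP.5 (adjusted p = 0.54), 0.50 ± 0.29 in K562/SSedit-2 (adjusted p = 0.34; 0.52 with adjusted p = 0.15 under the replicate block) and 0.26 ± 0.29 between the clones (adjusted p = 0.49). CDKN1A was higher in K562/SSedit-2 than in the K562 sample of the same number in 4 of 4 pairs. Without K/VP.5 replicate 2 the values with that line became -0.24 for K/VP.5 against K562 (adjusted p = 0.39) and 0.76 for K562/SSedit-2 against K/VP.5 (adjusted p = 0.0082), so the sample decided both values.

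The Cip/Kip inhibitors summed to 10.8 ± 2.11 CPM per kb in the parental line, 10.9 ± 1.56 in K/VP.5 and 10.7 ± 1.43 in the edited clone (SD, n = 4), which differed by less than the spread between replicates. CDKN1B made up 38.5% ± 7.02 of the sum in the parental line, 52.1% ± 7.40 in K/VP.5 and 38.0% ± 5.49 in the edited clone. The CDKN1C share was 51.2% ± 6.69 in the parental line, 36.3% ± 3.14 in K/VP.5 and 47.2% ± 5.71 in the edited clone. CDKN1A held 10.3% ± 1.38, 11.6% ± 4.72 and 14.8% ± 0.74 in the same order.

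Of the INK4 inhibitors, CDKN2C (ENSG00000123080, chr1:50960745-50974634, plus strand) was the more abundant. It was at 62.0, 85.9, 85.5 and 80.5 CPM in K562 and at 131, 117, 127 and 138 CPM in K/VP.5. The edited clone was at 73.0, 77.1, 83.4 and 73.1 CPM. Every K/VP.5 sample was above every other sample, and K562/SSedit-2 lay inside the K562 range. It rose by 0.71 ± 0.093 on the log2 scale in K/VP.5 (1.63-fold, adjusted p = 1.05e-05), and by 0.59 (adjusted p = 1.03e-06) without K562 replicate 1, the lowest of its line. The log2 difference was -0.03 (95% confidence interval -0.23 to 0.16) in K562/SSedit-2 and -0.74 ± 0.094 between the clones (adjusted p = 6.14e-06).

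CDKN2D (ENSG00000129355, chr19:10566460-10569059, minus strand) was low in all lines. It was at 2.58, 3.20, 2.56 and 2.14 CPM in K562 and at 3.45, 2.98, 3.74 and 2.81 CPM in K/VP.5. The edited clone reached 2.23, 2.68, 2.66 and 2.74 CPM. K/VP.5 overlapped K562 and lay above all K562/SSedit-2 samples by a narrow margin. The log2 difference was 0.31 ± 0.15 in K/VP.5 (adjusted p = 0.11), -0.02 ± 0.15 in K562/SSedit-2 (adjusted p = 0.95) and -0.33 ± 0.15 between the clones (adjusted p = 0.087). The last call was lost without a count filter (adjusted p = 0.22) and when any one of K/VP.5 replicates 1, 2 and 3 or K562/SSedit-2 replicates 1, 2 and 3 was left out (adjusted p = 0.10 to 0.26). The difference in K/VP.5 passed without K562 replicate 2 (0.40, adjusted p = 0.049) and without K/VP.5 replicate 4 (0.38, adjusted p = 0.083). CDKN2C held 93.7% ± 1.21 of the summed CPM per kb of both genes in the parental line, 95.1% ± 0.68 in K/VP.5 and 93.7% ± 0.55 in the edited clone. CDKN2B had 0 counts in every sample, and CDKN2A had at most 2.

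Ordered per kb of merged exon in K562, CCND3 was highest at 49.9 CPM per kb, followed by CDKN2C at 26.0, CCND2 at 14.4, CCNE1 at 13.6, CDK6 at 9.40, CDKN1C at 5.64, CCND1 at 5.12 and CDKN1B at 4.06. CDKN2D at 1.74 and CDKN1A at 1.12 were lowest. CCND2 and CCNE1 did not differ beyond their spread, and the replicates of CDKN1C, CCND1 and CDKN1B overlapped. Per kb of the longest coding transcript, CCND3 was again highest there, at 120 CPM per kb, and CDKN2C next at 27.0. CDKN1B at 8.66 ± 0.23 and CDKN1C at 7.22 ± 2.23 did not differ beyond their spread by that length, and CCND1 was at 5.75 ± 1.04. In K/VP.5 the order of the highest genes turned on the length used. Per kb of merged exon, CDKN2C at 42.4, CCND3 at 40.5 and CCND2 at 40.4 lay within each other's spread, whereas per kb of coding transcript CCND3 was at 97.3 and the overlapping CCND2 and CDKN2C were at 47.1 and 44.1. CDK6 followed by both lengths, at 25.4 and 26.7, and CCND1 was lowest, at 0.187 and 0.210 CPM per kb. In K562/SSedit-2 the order began by both lengths with CCND3, CDKN2C and CCND2, at 49.6, 25.4 and 18.4 CPM per kb of merged exon. CCND1 at 8.80 ± 1.58 and CDK6 at 8.64 ± 0.32 CPM per kb of merged exon did not differ beyond their spread in that line.

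Promoter sequence was read for the genes with an entry among RefSeq windows of GRCh38.p14, 7 of the 10, which have 12 start sites between them. CDKN1C, CCND1 and CCND2 have no entry. The 250 bases before each start were searched on both strands for the GC box GGGCGG, for CCAAT, for the TATA box TATAAA and for an E2F motif (TTTGGCGC, TTTCGCGC, TTTCCCGC or TTTGCCGC). The sequences before a start of CDK6 (chr7:92836574-92836823, minus strand) and of CDKN1B (chr12:12717118-12717367, plus strand), which rose in K/VP.5, and of CCNE1 (chr19:29811741-29811990, plus strand), which fell, are shown 5′ to 3′ with GC boxes and CCAAT in capitals on either strand.
CDK6: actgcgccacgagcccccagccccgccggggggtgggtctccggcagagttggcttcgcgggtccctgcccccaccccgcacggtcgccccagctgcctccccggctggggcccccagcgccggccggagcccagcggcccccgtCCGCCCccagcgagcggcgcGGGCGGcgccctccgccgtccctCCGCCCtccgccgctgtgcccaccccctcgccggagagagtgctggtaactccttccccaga
CDKN1B: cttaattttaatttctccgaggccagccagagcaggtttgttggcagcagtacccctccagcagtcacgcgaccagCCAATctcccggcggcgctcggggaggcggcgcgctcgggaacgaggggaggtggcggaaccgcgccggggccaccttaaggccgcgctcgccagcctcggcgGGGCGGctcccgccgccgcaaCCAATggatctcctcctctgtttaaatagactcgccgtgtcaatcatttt
CCNE1: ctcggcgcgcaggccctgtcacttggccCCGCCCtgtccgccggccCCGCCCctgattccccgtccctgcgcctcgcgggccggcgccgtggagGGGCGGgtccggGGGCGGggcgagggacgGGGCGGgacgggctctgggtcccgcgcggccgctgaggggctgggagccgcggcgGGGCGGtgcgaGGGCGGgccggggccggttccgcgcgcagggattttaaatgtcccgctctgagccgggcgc

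CDK6 has a second start among these windows (chr7:92833960-92834209, minus strand), and that window holds none of the motifs searched. The CDK6 stretch shown holds 3 GC boxes, of which the outer ones read on the opposite strand, CDKN1B holds 1 GC box and 2 CCAAT sequences, and CCNE1 holds 7 GC boxes. The G and C content was 80.0% for CDK6, 64.4% for CDKN1B and 81.2% for CCNE1. Over all 12 windows of the group, 9 held a GC box and 5 held CCAAT, against 42.6% and 32.0% of 35116 windows of the same length. The TATA box and the E2F letters, found in 10.7% and 2.79% of all windows, were not in any of the 12, which says only that these letters are not in these windows. Genes that rose and genes that fell both held GC boxes.

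The genes beside each locus were read as a description of the chromosome segment. Counts of neighbours are set beside 26.2% of all genes that rose in K/VP.5 against K562 and 26.1% that fell, and no test set any segment apart from these shares. Within 500 kb of CCND1, 5 genes were tested in K/VP.5 against K562, of which 2 rose and 2 fell, each by 2-fold or more. MYEOV, 299 kb away, was lower by a log2 difference of -4.42 (adjusted p = 2.21e-15), with 4607 to 6524 counts in K562 and 171 to 275 in K/VP.5. In K562/SSedit-2 MYEOV had 4594 to 5605 counts. The noncoding gene ENSG00000260877 had 11 to 22 counts in K562 and 0 in every K/VP.5 sample. LTO1, which overlaps CCND1, did not pass (-0.21), and SMIM38 was higher at 2.46 (adjusted p = 4.23e-09). Around CCND2, 3 of 9 neighbours rose and 0 fell, with a median of 0.25. TIGAR, 2.41 kb away, rose by 2.13 (adjusted p = 2.21e-06) from 10 to 19 counts in K562 to 34 to 69 in K/VP.5. TIGAR encodes a fructose bisphosphatase that slows glycolysis. Around CDK6, 5 of 17 neighbours rose, a share near that of all genes, but 0 fell, and the median was 0.02. Of the 17, 4 rose by 2-fold or more, beside 8.98% of all genes, and this was not tested. Neighbours of CDK6 that rose include CDK6-AS1 at 2.85 and SAMD9 at 1.09 (adjusted p = 6.29e-04). HEPACAM2, also near CDK6, had 1 to 2 counts in K562 and 24 to 53 in K/VP.5. Around CDKN1B, 8 of 18 neighbours rose, 0 fell and the median was 0.33, with APOLD1, 3.55 kb away, at 0.94 (adjusted p = 8.99e-04). Around CDKN1C, 6 of 12 neighbours fell and the median was -0.30. They include NAP1L4 at -0.49 (adjusted p = 2.46e-05) and SLC22A18 at -0.64 (adjusted p = 0.022), while KCNQ1OT1, a noncoding RNA of the imprinted domain that holds CDKN1C, rose by 0.67 (adjusted p = 0.0097). KCNQ1OT1 is antisense to KCNQ1, and their reads cannot be told apart where strand was not used. Around CCND3, which fell, 9 of 14 neighbours rose and 1 fell, with a median of 0.25. Around CCNE1, which also fell, 0 of 4 neighbours rose and 0 fell (median 0.06). Around CDKN1A, 1 of 10 rose and 4 fell (median -0.05). For CDKN2C, 3 of 7 neighbours rose and 0 fell (median 0.04), and for CDKN2D 8 of 39 rose and 4 fell (median 0.09). The neighbours named here were picked after their values were seen.

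**Figure D4:**
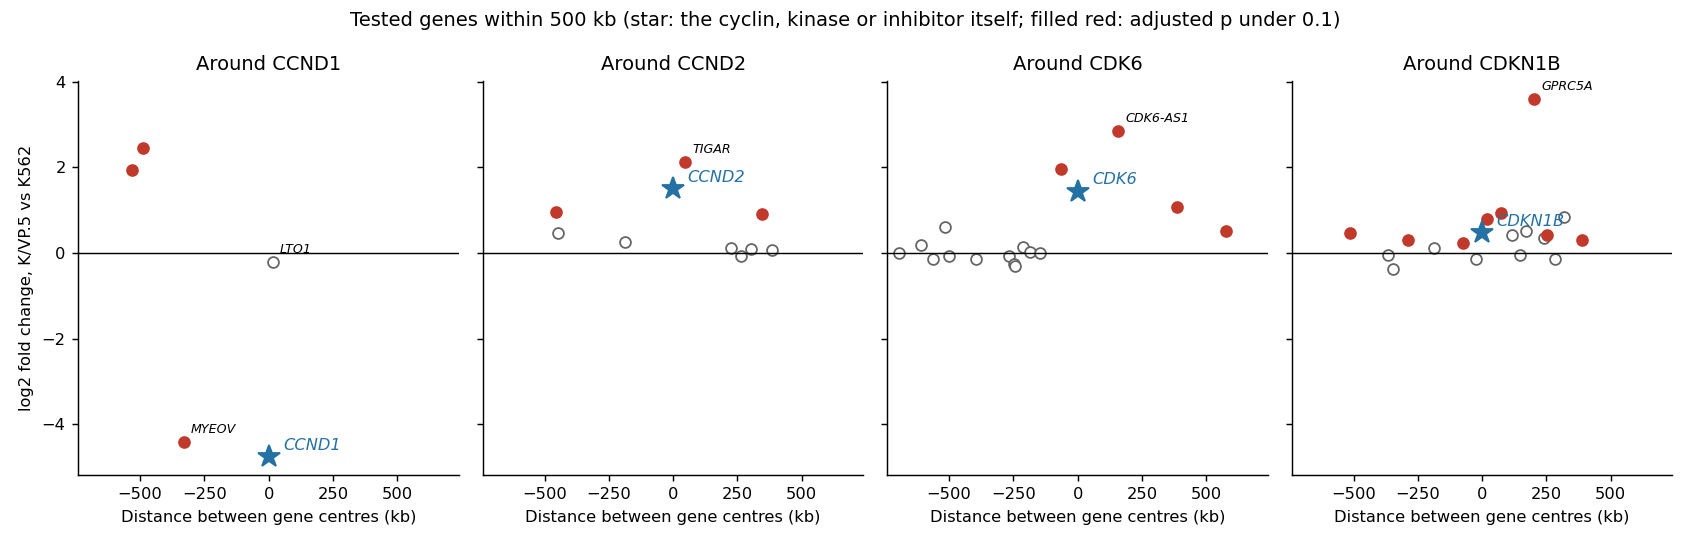
Log2 fold change in K/VP.5 against K562 of each tested gene within 500 kb of CCND1, CCND2, CDK6 and CDKN1B, plotted by the distance in kb between gene centres. Genes with at most 3 counts in every sample of either line are left out. Stars are the cyclin, kinase or inhibitor itself and filled circles have an adjusted p under 0.1. MYEOV at -4.42 lies beside CCND1 at -4.76, and TIGAR at 2.13 beside CCND2 at 1.49.

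Of 13 further cyclins, kinases and inhibitors of the G1/S machinery, 10 were tested, and 2 rose and 4 fell in K/VP.5, where 52.3% of all genes passed. Their log2 fold changes lay between -0.37 and 0.22. CDK2, the partner of cyclin E, fell by 0.37 on the log2 scale (82.3 ± 10.2 to 63.7 ± 3.81 CPM, adjusted p = 0.00114), and CDK4, the other cyclin D kinase, by 0.19 (adjusted p = 0.039). CDC25A, the phosphatase that activates CDK2, rose by 0.22 (adjusted p = 0.0053). In K562/SSedit-2 against K562, edgeR, limma voom and DESeq2 each passed 0 of the 10, and 0 had an unadjusted edgeR p under 0.05. Without K562 replicate 1, edgeR passed 1, CCNH, which was higher (0.31, adjusted p = 0.018). Between the clones, 4 were higher and 1 lower in K562/SSedit-2 (54.0% of all genes passed), with CDK7, a subunit of the CDK-activating kinase, at 0.34 (adjusted p = 7.74e-04).

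Of 17 genes of the RB family, the E2F factors and the DREAM complex, which represses cell cycle genes in resting cells, 1 rose and 5 fell in K/VP.5, beside 52.3% of all genes that passed there, a difference that was not tested. Without K562 replicate 1, 3 rose and 5 fell, beside 52.4% of all genes. RBL2 (p130), the RB relative that joins DREAM, fell from 41.8 ± 5.78 to 25.1 ± 1.504 CPM (-0.74 ± 0.089, adjusted p = 3.65e-06). E2F4, a repressive E2F, fell by 0.50 (adjusted p = 7.43e-05), TFDP2 fell by 0.46 (adjusted p = 5.90e-05) and its relative TFDP1, an E2F dimer partner, rose by 0.35 (adjusted p = 6.27e-05). RB1 was at 34.8 CPM in K562 and 33.2 CPM in K/VP.5 (adjusted p = 0.66). In K562/SSedit-2 against K562, each of edgeR, limma voom and DESeq2 passed 0 of the 17, where 12.6% of all genes passed, and 2 had an unadjusted edgeR p under 0.05, E2F4 and E2F5, both lower. Without K562 replicate 1, edgeR passed 2 other genes, RB1 and RBL1, both higher (0.31, adjusted p = 0.011, and 0.26, adjusted p = 0.052). Between the clones, 6 were higher and 3 lower in K562/SSedit-2, near the 54.0% of all genes, with RBL2 at 0.68 (adjusted p = 8.88e-06).

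Of 14 genes for the degradation of G1 cyclins and inhibitors, 4 rose and 3 fell in K/VP.5, a share near the 52.3% of all genes. FBXO4, an F-box protein that targets cyclin D1, fell from 14.4 ± 1.63 to 6.81 ± 0.61 CPM (-1.08 ± 0.11, adjusted p = 5.84e-07), and FBXO31, another F-box protein for cyclin D1, rose by 0.46 (adjusted p = 2.75e-05). SKP2, which marks p27 for degradation, fell by 0.23 in K/VP.5 (adjusted p = 0.017) and by 0.31 in K562/SSedit-2 (adjusted p = 0.016). AMBRA1, an adaptor for the degradation of D-type cyclins, rose by 0.18 in K/VP.5 (adjusted p = 0.028) and fell by 0.31 in K562/SSedit-2 (adjusted p = 0.0059). RBX1, a subunit of these ligases, rose by 0.42 in K562/SSedit-2 (adjusted p = 0.00185), 1 of 3 genes of the list to pass there, where 12.6% of all genes did. Without K562 replicate 1, 5 passed, 2 higher and 3 lower. Between the clones 8 passed, 4 in each direction, beside 54.0% of all genes, and FBXO4 was higher in K562/SSedit-2 by 1.13 (adjusted p = 3.38e-07).

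Of 16 genes of the p53 pathway, 14 were tested, and 4 rose and 5 fell in K/VP.5, beside 52.3% of all genes. TP53I3 fell by 1.26 on the log2 scale (6.26 ± 0.38 to 2.62 ± 0.47 CPM, adjusted p = 8.06e-07), and GADD45A, a stress-induced growth arrest gene, rose by 0.74 (adjusted p = 1.87e-05). In K562/SSedit-2 against K562, GADD45A was the one gene of the list to pass, at 0.58 ± 0.10 (adjusted p = 0.00215), beside 12.6% of all genes. Without K562 replicate 1, 2 passed, both higher. Between the clones, 4 were higher and 2 lower in K562/SSedit-2, beside 54.0% of all genes, with TP53I3 at 1.25 (adjusted p = 8.84e-07). Of 13 markers of S phase, G2 and mitosis, 2 rose and 3 fell in K/VP.5, beside 52.3% of all genes, and their summed level was 3454 to 3696 CPM in the parental line, 3493 to 3713 CPM in K/VP.5 and 3391 to 3656 CPM in the edited clone. MCM7, a subunit of the replicative helicase, rose by 0.31 (adjusted p = 2.11e-04), and MKI67, which encodes Ki-67, fell by 0.66 (adjusted p = 0.0022). In K562/SSedit-2 against K562, 0 of the 13 passed by edgeR, by limma voom or by DESeq2, with 1 at an unadjusted edgeR p under 0.05 (MCM4, -0.15, adjusted p = 0.14). By edgeR without K562 replicate 1, 2 other genes of the list passed, CCNB2 and CDK1, both higher (0.25, adjusted p = 0.044, and 0.30, adjusted p = 0.010), and MCM4 was at -0.10 (adjusted p = 0.21). Between the clones, 4 were higher and 3 lower in K562/SSedit-2, beside 54.0% of all genes, with MKI67 at 0.87 (adjusted p = 1.92e-04).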

How the data were processed

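The authors mapped reads to GRCh38 with HISAT2 and deposited whole-number featureCounts counts per gene and sample, without normalization. The annotation release, strand setting and treatment of reads with several matches are not given in the sources used here. Of 60671 gene IDs, 60401 were found in GENCODE 44, which gave symbols, positions and exon lengths.

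The software was edgeR 4.0.16 (R 4.3.3), beside DESeq2 1.42.0, limma 3.58.1, pandas 2.3.3 and matplotlib 3.10.9 (Python 3.11.15). The function filterByExpr (minimum count 10) retained 18626 genes. All 12 samples were fitted together by line with TMM factors, and lines were compared with edgeR's quasi-likelihood F test, 2-sided, and p-values were adjusted by Benjamini-Hochberg across the 18626 genes. The thresholds were an adjusted p of 0.1, alone and with a fold change of 2. Standard errors were obtained as |log2 fold change|/√F. CPM used the counts in tested genes and TMM factors. The 10 genes and the further gene lists were chosen with earlier results of these data known, so list counts are descriptions. Named genes of a list are those past both thresholds with the largest changes (at most 4), otherwise that of the smallest p, beside TOP2A, genes overlapping the 10 and their most alike genes. The other list genes were named after their values were seen. Some marker genes are not reported here.

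The 18 pairs of replicates within a line gave a chi-square per degree of freedom of 4.82 to 56.4, so none was a duplicate. The 3 highest, 53.5 to 56.4, were the pairs with K562 replicate 1. Counts of the gene lists and of all genes without that library were an alternative chosen after seeing the data. The pairing of replicate numbers comes from the labels. It was checked by correlating, across genes, how samples of 1 number departed from the mean of their line. For K562/SSedit-2 and K562, every pair was at 0.28 to 0.41, and the numbers were taken as pairing these samples, with no call changed by the replicate block. For K/VP.5 and K562 (-0.02 to 0.34) and for both clones (-0.21 to 0.21) they were not. The alternatives were RLE or upper-quartile scaling, DESeq2's Wald test, limma voom, no filter, a filter of 1 CPM in 4 samples, the compared lines alone, the replicate block, each replicate left out, an adjusted p of 0.05 and another length for shares. The fit was tested on simulated data.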

Additional observations from a re-analysis of the deposited data

Results flagged for a closer look

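Each of the 30 groups of 4 replicates was checked for a sample far from the others, and 2 samples stood apart, where chance marks about 1 in 20 groups. CDK6 was at 296 CPM in K/VP.5 replicate 4, against 315 to 318 CPM in the other replicates, a gap of 0.87 of the whole range. CDKN2D was at 2.23 CPM in K562/SSedit-2 replicate 1, against 2.66 to 2.74 CPM in the others, a gap of 0.83 of the range. For CCND1 the effects of the clones against K562 ran in opposite directions. The log2 fold change in K562/SSedit-2 minus that in K/VP.5 was 5.55 (edgeR's quasi-likelihood F test, adjusted p = 4.07e-13). A gene was flagged only if every comparison passed, so this p-value adds no support to the flag. All 4 K/VP.5 samples were below and all 4 K562/SSedit-2 samples above the K562 range.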

How the results depend on the processing

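The number of the 10 genes past an adjusted p of 0.1 was 8 in K/VP.5 against K562 (7 to 9 over the alternatives, 7 to 8 with a replicate left out), 2 in K562/SSedit-2 against K562 (2 to 3 in both sets) and 7 between the clones (6 to 8 in both sets). The numbers that also reached 2-fold (3, 0 and 3) were the same under every alternative. Of 480 refitted values, 432 kept their direction and their side of the threshold, 14 lost the threshold, 13 gained it and 21 changed sign. With replicate number as a block over all samples, the counts were 8, 2 and 8, and 1 call changed, CDKN1C between the clones (0.34, adjusted p = 0.067). In both comparisons with K/VP.5, 2 of 4 samples correlated best with their own number. The same call was gained in the fit of the compared lines alone (0.36, adjusted p = 0.071) and without a filter (0.35, adjusted p = 0.017). CDKN1A in K562/SSedit-2 passed without a filter (0.47, adjusted p = 0.080), and CDKN2D in K/VP.5 passed with upper-quartile scaling (0.38, adjusted p = 0.057), limma voom (0.32, adjusted p = 0.099) and the 1 CPM filter (0.33, adjusted p = 0.076). The cause was not tested.

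Sign changes concerned differences that missed the threshold. In K562/SSedit-2 against K562, upper-quartile scaling gave 0.022 for CDKN1B, 0.0052 for CDKN2D and 0.019 for CCND3, the 1 CPM filter gave 0.0072 for CDKN1B and 0.0051 for CCND3, and the compared lines alone gave 0.0031 for CDKN1B and 0.0011 for CCND3. With a replicate left out in that comparison, values spanned -0.047 to 0.039 for CDKN1B, -0.31 to 0.013 for CDKN1C, -0.13 to 0.016 for CDKN2C, -0.11 to 0.092 for CDKN2D and -0.041 to 0.048 for CCND3. They spanned -0.24 to 0.43 for CDKN1A in K/VP.5 against K562 and -0.016 to 0.16 for CCNE1 between the clones.

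With the longest coding transcript as the length, shares in the parental line, in K/VP.5 and in the edited clone, in that order, were 4.01%, 0.145% and 6.54% for CCND1, 11.8%, 32.6% and 14.3% for CCND2, 84.2%, 67.3% and 79.1% for CCND3, 50.7%, 64.1% and 50.3% for CDKN1B and 40.8%, 27.0% and 37.6% for CDKN1C. For CDKN1A they were 8.47% in K562 and 12.1% in K562/SSedit-2. The order of lines within each gene was the same by both lengths, but the mean share of CDKN1B was above that of CDKN1C in the parental line and in the edited clone by coding transcript length and below it by merged exons. Low counts limit CDKN1A, CDKN2D and CCND1 in K/VP.5.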

Other observations

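For each of the 10 genes, the protein-coding genes of at least 5 CPM on average, 9425 in all, were ranked by the root mean square difference of mean-centred log2 CPM over the 12 samples, which share their 3 lines. CCND1 was most like ASPH (0.28), which was at 32.2 ± 1.91 CPM in the parental line, 1.13 ± 0.16 in K/VP.5 and 39.3 ± 2.32 in the edited clone (SD, n = 4), and next like GMFG (0.29). CCND1 itself departed from its mean by 2.42 on this scale. CCND2 was most like SNX19 (0.076), at 41.6 ± 1.06, 118.8 ± 1.21 and 50.5 ± 3.20 CPM in the same order, and next like NUBP1 (0.11). CDK6 was most like FOXN3 (0.14), at 5.41 ± 1.09, 16.1 ± 1.05 and 4.64 ± 0.53 CPM, and EPB41L2 (0.14), at 85.1 ± 7.06, 210.9 ± 20.5 and 81.7 ± 9.30 CPM.

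CDKN2C was most like RCC1L (0.052) and PEX5 (0.063), and CDKN1B was most like ZCCHC14 (0.060) and GBA2 (0.062). CCND3 was most like NSMCE1 (0.053) and KLHDC3 (0.053). For CCNE1 the nearest were TLK2 (0.0999) and ZFYVE16 (0.10), for CDKN1C ZSWIM4 (0.13) and RTN2 (0.15), and for CDKN2D PLA2G12A (0.13) and RNF103 (0.13). CDKN1A had INSIG1 (0.25) and STARD4 (0.26), both genes of cholesterol supply, as its nearest genes, with the widest distance after that of CCND1. CDKN1A itself departed from its mean by only 0.47, CCNE1 by 0.18 and CDKN2D by 0.22, so the nearest genes of these are loose matches. A shared role was not tested. INSIG1 was at 538 ± 123 CPM in the parental line, 494 ± 177 in K/VP.5 and 667 ± 94.8 in the edited clone.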
